A study of Mus musculus with 41 samples.

Results

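The comparison described here sets mouse endocardial cells that received a Notch ligand together with a gamma-secretase inhibitor against cells that received the vehicle alone. It takes 9 of the 41 RNA-seq libraries of the series, chosen by their labels: 3 of MEEC grown on wells coated with recombinant DLL4 (rDLL4, His-tagged) with 20 µM RO4929097 (RO), 3 on wells coated with recombinant JAG1 (rJAG1, an Fc fusion) with 20 µM RO, and 3 without ligand in DMSO. MEEC are wild-type cells of a line made from mouse embryonic endocardium, the inner lining of the heart. The cultures behind these 9 libraries ran for 38 h, 24 h with serum and then 14 h without it. The additive (RO or DMSO) was present throughout. The remaining groups of the same experiment, rDLL4 with DMSO and rJAG1 with DMSO (3 libraries each), entered the fit. This experiment has no group that received RO without a ligand, so an effect of RO and an effect of ligand that RO did not block cannot be told apart within it. A second experiment is set beside it: MEEC held for 24 h in 20 µM RO or in DMSO and then laid for 6 h over OP9 stromal cells that carried GFP (4 libraries each, with vehicle libraries of their own). The question was which genes stood below or above the vehicle level once ligand and inhibitor were both present.

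Notch receptors are cut in the membrane when a ligand on a neighbouring surface pulls on them. ADAM10 makes the outer cut and gamma-secretase the inner one, which frees the intracellular domain to enter the nucleus and switch on genes such as Hes1, Hey1 and Nrarp together with RBPJ. RO4929097 blocks gamma-secretase, an enzyme that also cuts many other membrane proteins. In the endocardium Notch is known for its part in valve and trabecula formation.

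The authors deposited normalized signal per gene, in which 0.5 was added to the reads of a gene and the sum divided by a scaled library size. The ligand plus RO libraries held 13.1 to 23.1 M reads and the DMSO libraries 18.1 to 34.2 M, and 13407 genes were listed and tested. DMSO replicate 3 stood apart from its group: the chi-square per gene between its reads and those of DMSO replicates 1 and 2 was 35.3 and 52.6, against 11.1 between replicates 1 and 2. Results that rest on it are given with and without it. Fold changes are log2 of (signal + 1), ligand plus RO minus DMSO, given ± SE from a limma fit with the replicate number as block, and a gene passed at a Benjamini-Hochberg adjusted p under 0.05. Of 25 endothelial and endocardial identity genes, 12 had values, among them Tek, Kdr, Cd34, Fli1 and Gata4. Eng, also among the 12, had only 3 to 17 reads and a signal under 1 in each of the 9 libraries. The other 13, among them the junction genes Pecam1 and Cdh5 and the transcription factor Erg, have no value here. All 13407 listed genes reached a signal of 1 in at least 3 of the 15 libraries of the experiment. A gene without a value may therefore have been too low to be listed, though the rule for listing is not stated. The 13 missing genes lend the labelled identity no support, and only 12 could be checked. Keratin genes had values as well and are given below. The name endocardial is taken from the labels. Whether the 3 libraries of a group are separate cultures is not stated, and the p-values then cover only the spread among them, which may be technical.

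Ligand plus RO moved 784 genes past the threshold, 5.85% of those tested. Of these, 388 rose (2.89%) with a median log2 fold change of 0.40, and 396 fell (2.95%) with a median of -0.43. Most changes were small: 8 genes rose and 18 fell by 1 or more on the log2 scale. In 758 of the 784 all 6 ligand plus RO libraries lay on the same side of the DMSO library of their number. The share of all genes that did so is not given here. In 528 of the 784 the 6 libraries did not overlap the 3 DMSO libraries, as happened for 7.63% of all genes. The calls rest on the same values, so neither count is separate support for them. Without DMSO replicate 3 the fit called 552 genes, 220 higher and 332 lower, of which 420 were among the 784. Without the replicate block it called 325, all of them among the 784.

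Both ligand arms contributed. Against the same DMSO libraries, rDLL4+RO called 587 genes (4.38% of those tested), 289 higher (2.16%) and 298 lower (2.22%), and rJAG1+RO called 389 (2.9%), 170 higher (1.27%) and 219 lower (1.63%). Set against each other, rDLL4+RO and rJAG1+RO differed in 0 genes by limma and 0 by edgeR, while DESeq2 called 8. At an unadjusted p under 0.05 the count was 487 genes, or 3.63%, and the smallest adjusted p by limma was 0.952. The median SE of that difference was 0.094 on the log2 scale, so small differences between the arms were not detectable with 3 libraries each.

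Of 8 canonical Notch target genes 5 had values. Of these, 1 fell below the vehicle level, against 2.95% of all genes, while the other 4 did not pass. Hes1, a transcriptional repressor and direct Notch target (chromosome 16, 30064384 to 30067796, GRCm38), had a signal of 18.0 to 22.7 (median 20.7) in the ligand plus RO libraries, against 27.2, 32.2 and 29.8 in the DMSO libraries. All 6 ligand plus RO libraries lay below all 3 DMSO libraries, and the log2 fold change was -0.51 ± 0.11 (adjusted p = 0.013). Without DMSO replicate 3 the estimate was -0.46 with an adjusted p of 0.067, so the call was lost. The ligand groups without RO share the DMSO libraries with this comparison, and their values are given beside it: Hes1 averaged 50.3 ± 4.70 on rDLL4 with DMSO and 64.8 ± 16.1 on rJAG1 with DMSO (SD, n = 3 each), with log2 fold changes against DMSO of 0.74 and 1.07.

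Nrarp, a feedback inhibitor of Notch, had a signal of 1.46 to 2.49 (median 2.21) in the ligand plus RO libraries, against 3.70, 2.68 and 3.16 in the DMSO libraries. The groups did not overlap, but the log2 fold change of -0.42 ± 0.13 did not pass in the limma fit (adjusted p = 0.079). On the recovered reads edgeR gave -0.58 (adjusted p = 0.045) and DESeq2 -0.59 (adjusted p = 0.037), past the threshold in both. Hey2, a Hes-related repressor, had a signal of 5.49 to 10.0 (median 7.21) in the ligand plus RO libraries, against 4.43, 4.71 and 10.8 in the DMSO libraries. Its groups overlapped, with a log2 fold change of 0.19 ± 0.14 (adjusted p = 0.49). Without DMSO replicate 3, the highest of the DMSO libraries, Hey2 passed as higher, at 0.43 (adjusted p = 0.034). Hey1, of the same family, was low on both sides, at 0.420 to 0.828 with ligand plus RO and 0.748 to 0.816 in DMSO, with a log2 fold change of -0.09 ± 0.12 (adjusted p = 0.73). Heyl had at most 3 reads in each of these 9 libraries, so no difference was detectable at this depth. On rJAG1 with DMSO the 4 genes averaged 19.6 ± 5.44 (Nrarp), 35.6 ± 3.87 (Hey2), 16.0 ± 3.05 (Hey1) and 5.15 ± 1.26 (Heyl; SD, n = 3), above every ligand plus RO and DMSO library.

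**Figure D1:**
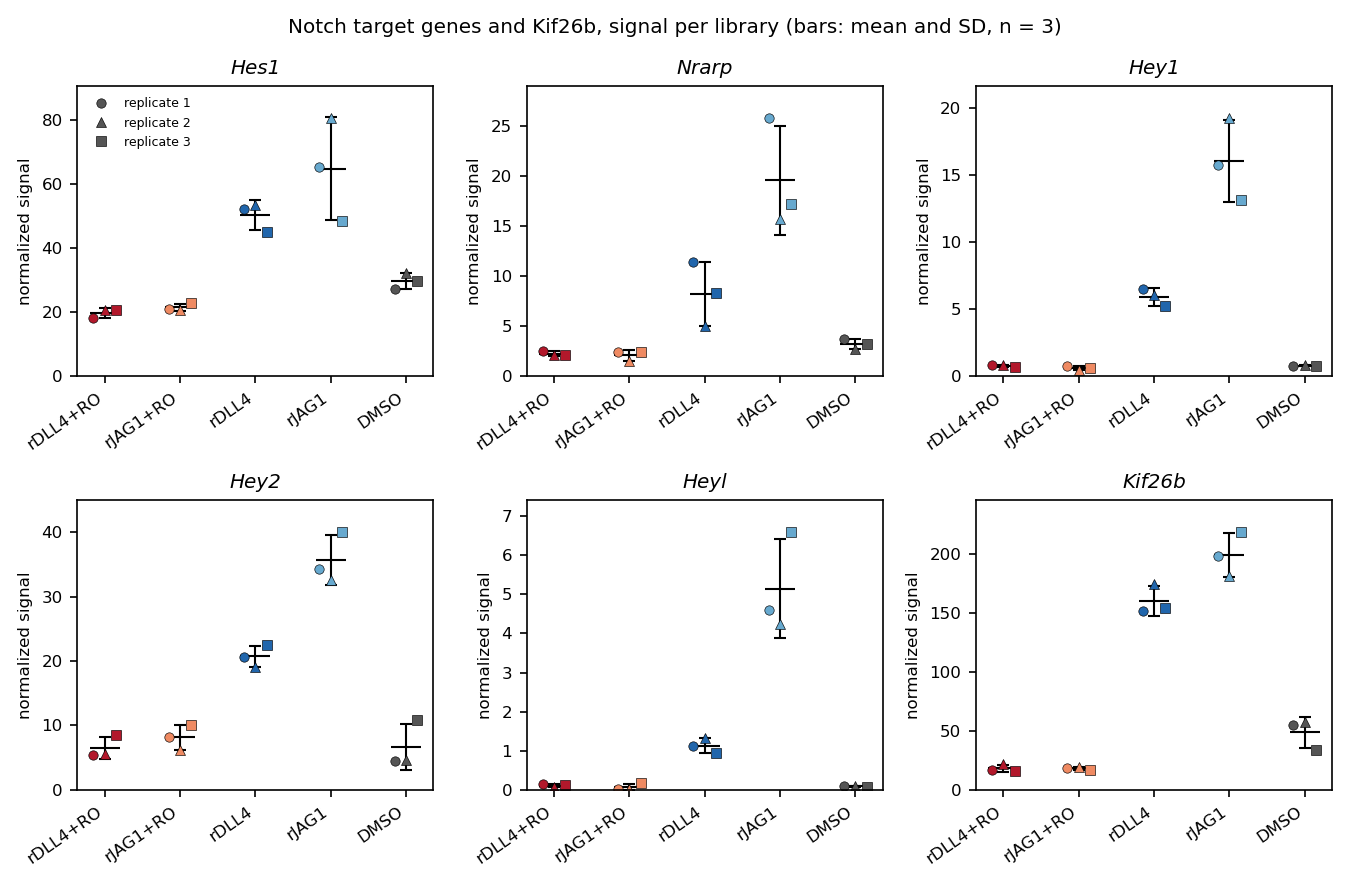
Normalized signal of the 5 Notch target genes with values and of Kif26b, per library (points, shape by replicate number) with group mean and SD (bars, n = 3), for rDLL4+RO, rJAG1+RO, rDLL4, rJAG1 and DMSO. Hes1 lies between 18.0 and 22.7 in the 6 ligand plus RO libraries and between 27.2 and 32.2 in DMSO, while the ligand libraries without RO lie above both in all 6 panels.

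In the co-culture experiment, which has its own vehicle libraries, 4 of 4 measured Notch targets fell with RO, against 3.29% of all genes called there (1.21% higher, 2.08% lower). Hes1 averaged 23.8 ± 3.28 with RO and 45.3 ± 4.21 with DMSO (SD, n = 4 each), a log2 fold change of -0.90 (adjusted p = 0.00079). The other 3 gave -0.82 for Nrarp (adjusted p = 0.0034), -0.70 for Hey1 (adjusted p = 0.037) and -0.64 for Hey2 (adjusted p = 0.0045). The 2 tables were normalized separately, and the difference between the experiments was not tested.

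Among the Notch receptors and ligands, 2 of 6 measured genes rose and 0 fell, against 2.89% and 2.95% of all genes. Dlk1, a membrane protein that can dampen Notch, had a signal of 10.6 to 17.9 (median 14.0) in the ligand plus RO libraries, against 6.16, 6.03 and 2.21 in the DMSO libraries. Every ligand plus RO library lay above every DMSO library, and the log2 fold change was 1.43 ± 0.18 (adjusted p = 0.00047). Against the same DMSO libraries the ligands alone gave -0.96 (rDLL4) and -1.50 (rJAG1), and in the co-culture Dlk1 also rose with RO, by 0.99 (adjusted p = 0.002). Jag2, a Notch ligand, rose by 0.24 ± 0.07 (adjusted p = 0.046), with overlapping groups, and passed in only 1 of 9 fits that each left out 1 library. Notch1, Notch2, Notch3 and Jag1 did not pass.

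None of the 7 gamma-secretase subunit genes passed: log2 fold changes ran from -0.16 (Aph1b) to 0.23, and Psen2, a catalytic subunit, gave 0.19 ± 0.09 (adjusted p = 0.28). Of 25 genes for Notch processing, turnover and the nuclear complex, 2 rose and 1 fell, against 2.89% and 2.95% of all genes. Adam10, the protease of the outer cut, had a signal of 520.5 to 589 (median 569.8) in the ligand plus RO libraries, against 478, 476 and 393 in the DMSO libraries. The groups did not overlap, and the log2 fold change was 0.32 ± 0.06 (adjusted p = 0.0074). Dtx4, a Deltex ubiquitin ligase, rose by 0.53 ± 0.11 (adjusted p = 0.0098), a call lost without DMSO replicate 1 or 2 (adjusted p = 0.055 and 0.058). Fbxw7, a ubiquitin ligase component that turns over the Notch intracellular domain, fell by 0.28 ± 0.07 (adjusted p = 0.03), and without DMSO replicate 3 the estimate was -0.19 (adjusted p = 0.17).

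The 25 measured genes for other gamma-secretase substrates code for membrane proteins that the enzyme is known to cut besides Notch. Their median log2 fold change was -0.03, against 0.0043 over all genes, and 3 of them fell, against 2.95% of all genes. Cdh1, E-cadherin, had a signal of 1.55 to 2.85 (median 2.47) in the ligand plus RO libraries, against 4.79, 3.68 and 5.05 in the DMSO libraries. All ligand plus RO libraries lay below all DMSO libraries, and the log2 fold change was -0.75 ± 0.11 (adjusted p = 0.001). Cdh2, N-cadherin, was at 192 to 228 (median 208) against 293, 233 and 241 in DMSO, a log2 fold change of -0.28 ± 0.05 (adjusted p = 0.0044). Epha4, an ephrin receptor, was at the threshold (-0.32 ± 0.09), with overlapping groups, and without DMSO replicate 3 stood at -0.15 (adjusted p = 0.24).

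Hypoxia response and glycolysis genes fell together: 16 of 25 measured members fell and 0 rose, against 2.95% and 2.89% of all genes. The median log2 fold change was -0.32, and 24 of the 25 estimates were below 0. Without DMSO replicate 3 the count was 10 lower and 0 higher, and without the replicate block 8 lower and 0 higher. Pfkl, the liver-type phosphofructokinase that commits glucose to glycolysis, had a signal of 32.4 to 39.0 (median 35.9) in the ligand plus RO libraries, against 63.2, 55.5 and 82.5 in the DMSO libraries. The groups were far apart, and the log2 fold change was -0.86 ± 0.07 (adjusted p = 1.5e-05). Ldha, which turns pyruvate into lactate, had a signal of 266 to 316 (median 278) in the ligand plus RO libraries, against 423, 339.6 and 526 in the DMSO libraries. It gave -0.57 ± 0.08 (adjusted p = 0.0011), with DMSO replicate 3 the highest library. Tpi1, triosephosphate isomerase, lay at 364 to 414 (median 381) against 545, 474 and 531 in DMSO, a log2 fold change of -0.41 ± 0.05 (adjusted p = 0.00029). Pgk1, phosphoglycerate kinase, had a signal of 301 to 375 (median 339) in the ligand plus RO libraries, against 462, 389 and 524 in the DMSO libraries. It fell by 0.41 ± 0.06 (adjusted p = 0.0011). Among the members named after their values were seen, Aldoa, Mif, Pkm and Gapdh fell by 0.34, 0.40, 0.32 and 0.34 on the log2 scale, each without overlap of the groups. Several of these genes have near-identical pseudogenes, so the assignment of their reads is uncertain.

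The fall was not shared by the whole list. Car9, a classical hypoxia target, had the one estimate above 0 (0.30 ± 0.20) and did not pass, and neither did the hypoxia targets Vegfa, Bnip3, P4ha1 and P4ha2. These 5 are named after their values were seen. Against the same DMSO libraries the ligands alone gave log2 fold changes of 0.00 and -0.10 for Pfkl and -0.01 and -0.01 for Pgk1 (rDLL4 and rJAG1). In the co-culture, RO moved 1 of the 25 genes up and 0 down, against 1.21% and 2.08% of all genes there. Pfkl averaged 58.2 ± 6.46 with RO and 62.0 ± 8.15 with DMSO in the co-culture (SD, n = 4 each, adjusted p = 0.48). The labels describe 14 h without serum for the coated wells and none for the co-cultures, and its part in the result was not tested. The 30 measured genes of the mitochondrial respiratory chain had a median of -0.01, with 0 higher and 0 lower.

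**Figure D2:**
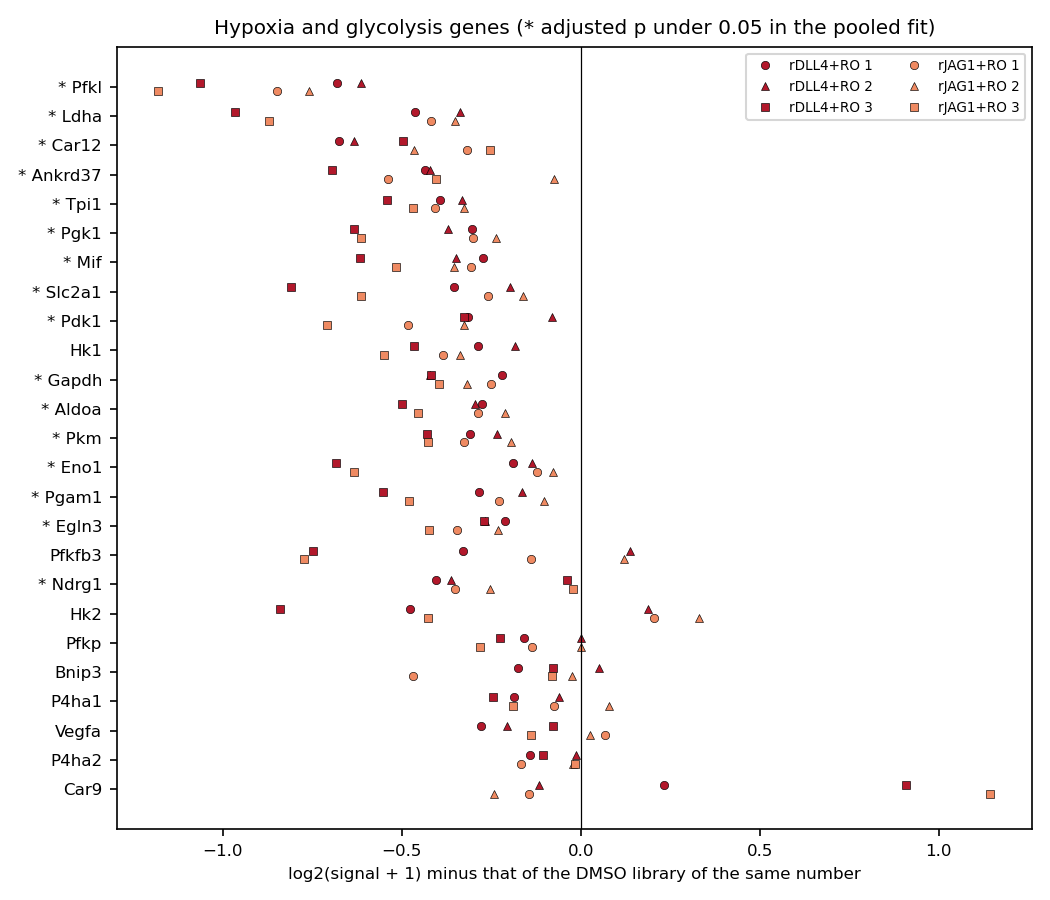
Each point is log2(signal + 1) of 1 ligand plus RO library minus that of the DMSO library of the same number (x axis) for the 25 measured hypoxia and glycolysis genes (y axis), coloured by ligand and shaped by number. Pfkl, Ldha and Tpi1 lie below 0 in all 6 libraries, and the differences of number 3 are often the widest.

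The promoter windows of Ldha and Pgk1, which both fell, are shown with the hypoxia response core, the known binding core of the hypoxia-inducible factors. The core searched was ACGTG on both strands (capitals, where CACGTG is a pair of overlapping matches), in the window from 250 bases before to 50 after the annotated start (RefSeq, GRCm38.p6, 300 bases each). Ldha (chr7:46845554-46845853, + strand, the first of 2 annotated windows) held 5 matches and Pgk1 (chrX:106186850-106187149, + strand) held 2.
Ldha: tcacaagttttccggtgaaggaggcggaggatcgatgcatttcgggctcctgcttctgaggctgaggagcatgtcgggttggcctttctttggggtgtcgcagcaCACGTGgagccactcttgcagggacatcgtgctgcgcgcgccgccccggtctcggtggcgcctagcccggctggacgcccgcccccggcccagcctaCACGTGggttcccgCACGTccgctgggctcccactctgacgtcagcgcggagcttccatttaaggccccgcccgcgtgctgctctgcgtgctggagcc
Pgk1: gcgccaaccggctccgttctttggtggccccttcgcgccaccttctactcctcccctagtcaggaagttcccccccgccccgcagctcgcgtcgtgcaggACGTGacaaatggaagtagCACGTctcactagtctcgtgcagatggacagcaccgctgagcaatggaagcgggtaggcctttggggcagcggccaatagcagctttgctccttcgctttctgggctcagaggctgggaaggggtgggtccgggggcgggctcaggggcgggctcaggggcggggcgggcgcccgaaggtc
The core was present for 10 of 15 members that fell and had a window, for 8 of 9 that did not pass, and for 21.8% of all 27025 symbols with a window (19.6% of 32851 windows). A match is a description of the letters and not a site of binding.

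Of 19 measured xenobiotic and oxidant response genes 7 rose and 0 fell, against 2.89% and 2.95% of all genes, and 12 did not pass. The median log2 fold change was 0.11, and 8 of the 19 estimates were below 0. Without DMSO replicate 3 the counts were 4 higher and 1 lower. The list joins targets of the aryl hydrocarbon receptor (AhR), a sensor of planar foreign compounds, and of NRF2, the oxidant sensor. Cyp1a1, the classical AhR target, had 41, 23 and 19 reads with rDLL4+RO, 26, 21 and 34 with rJAG1+RO, and 3, 5 and 1 in DMSO. As signal this was 0.998 to 1.86 (median 1.49) against 0.141, 0.157 and 0.0838, a log2 fold change of 1.1 ± 0.14 (adjusted p = 0.00051) that the added 1 understates. Cyp1a1 reached a signal of 1 in 5 of the 6 ligand plus RO libraries and in 0 DMSO and 0 ligand libraries, so it entered the table through the libraries in which it was high, as did 9 of the 388 genes that rose. Its call therefore gives no weight to the list.

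Ahrr, the repressor that AhR itself induces, had a signal of 9.95 to 12.3 (median 11.4) in the ligand plus RO libraries, against 5.64, 4.65 and 5.84 in the DMSO libraries. Its groups did not overlap, and the log2 fold change was 0.96 ± 0.12 (adjusted p = 0.00031). Cyp1b1, a further AhR target and steroid hydroxylase, had a signal of 169 to 232 (median 177) in the ligand plus RO libraries, against 156, 105 and 127 in the DMSO libraries. It rose by 0.58 ± 0.05 (adjusted p = 2.4e-05). Against the same DMSO libraries, rDLL4 and rJAG1 without RO gave -0.73 and -0.93 for Ahrr, 1.02 and 1.15 for Cyp1b1, and -0.06 and -0.02 for Cyp1a1 on the log2 scale. Nqo1, a quinone reductase and NRF2 target, was at 23.4 to 27.1 (median 26.0) against 21.4, 21.3 and 19.1 in DMSO, a rise of 0.30 ± 0.06 (adjusted p = 0.013), with 0.23 (adjusted p = 0.071) without DMSO replicate 3. The other 3 that rose, named after their values were seen, were Tiparp (0.35), an AhR-induced enzyme, Gstm1 (0.50), a glutathione transferase, and Gclc (0.24), of glutathione synthesis. Other NRF2 targets did not pass, among them Hmox1 at -0.07 ± 0.06, Txnrd1 at -0.08 ± 0.06 and Srxn1 at -0.01 ± 0.05.

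In the co-culture 1 of 19 list members, Gstm1, passed with RO, at 0.44 (adjusted p = 0.015), against 1.21% of all genes that rose there. Cyp1a1 averaged 4.88 ± 2.69 with RO and 1.73 ± 0.417 with DMSO (SD, n = 4 each), a log2 fold change of 1.00 with an adjusted p of 0.067. Ahrr averaged 17.0 ± 5.88 with RO and 10.7 ± 1.47 with DMSO, a log2 fold change of 0.58 with an adjusted p of 0.053. Both were above the vehicle mean there and both missed the threshold, while Cyp1b1 gave -0.27 (adjusted p = 0.22).

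**Figure D3:**
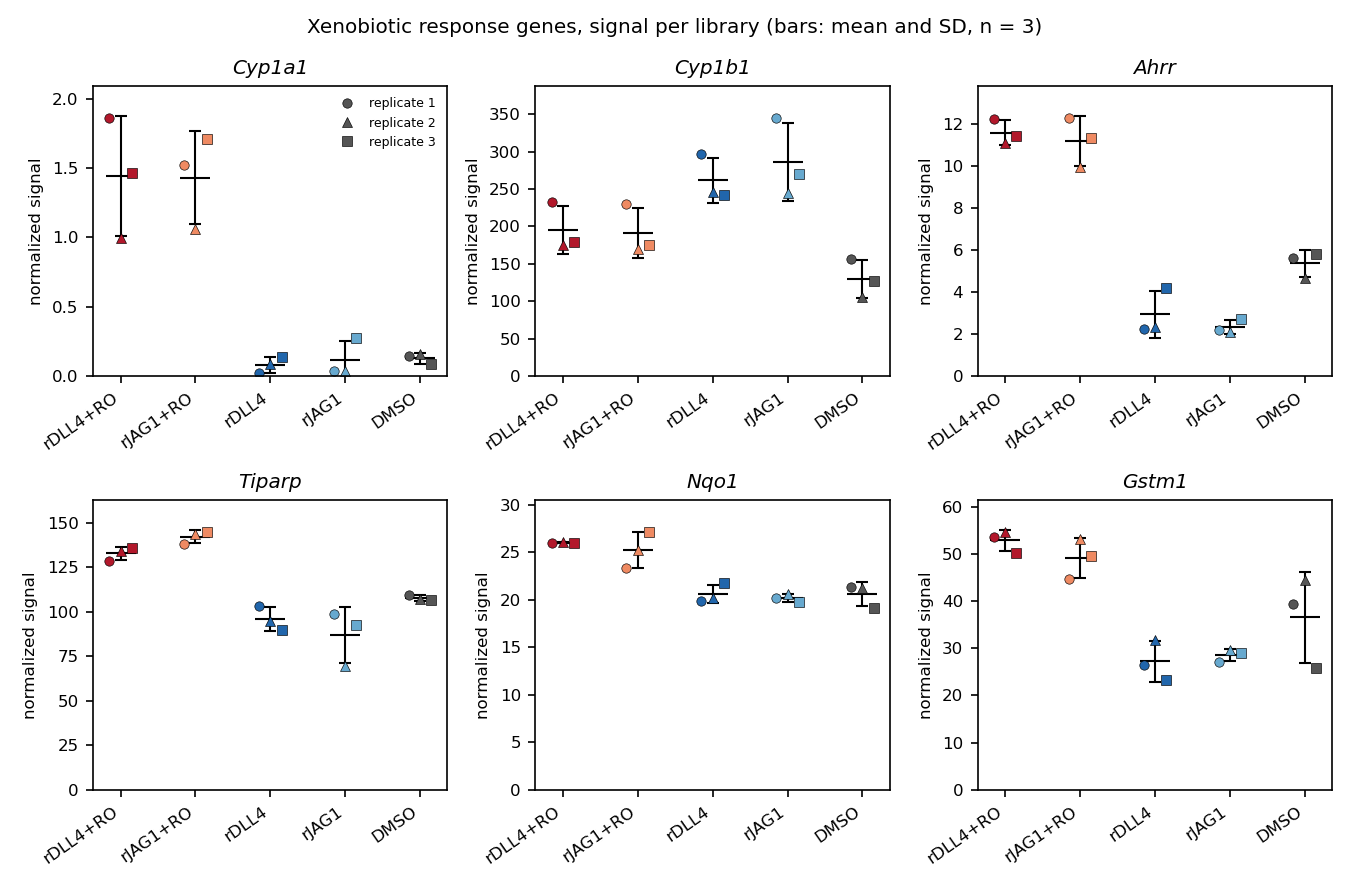
Normalized signal of 6 xenobiotic response genes per library (points, shape by replicate number) with group mean and SD (bars, n = 3), for rDLL4+RO, rJAG1+RO, rDLL4, rJAG1 and DMSO. Cyp1a1 lies at 0.998 to 1.86 in the ligand plus RO libraries and at 0.0838 to 0.157 in DMSO, and Cyp1b1 is highest on the ligands without RO.

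The promoter windows of the 3 AhR targets are shown with the AhR binding core GCGTG, searched on both strands, in capitals. Ahrr (chr13:74292282-74292581, - strand) held 3 matches, and Cyp1a1 (chr9:57697363-57697662, + strand) and Cyp1b1 (chr17:79715012-79715311, - strand) held 1 each.
Ahrr: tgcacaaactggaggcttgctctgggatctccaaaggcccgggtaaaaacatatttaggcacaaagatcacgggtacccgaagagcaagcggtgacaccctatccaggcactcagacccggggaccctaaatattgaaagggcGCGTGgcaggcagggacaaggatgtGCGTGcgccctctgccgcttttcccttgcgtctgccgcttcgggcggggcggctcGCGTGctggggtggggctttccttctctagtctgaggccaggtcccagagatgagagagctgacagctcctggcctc
Cyp1a1: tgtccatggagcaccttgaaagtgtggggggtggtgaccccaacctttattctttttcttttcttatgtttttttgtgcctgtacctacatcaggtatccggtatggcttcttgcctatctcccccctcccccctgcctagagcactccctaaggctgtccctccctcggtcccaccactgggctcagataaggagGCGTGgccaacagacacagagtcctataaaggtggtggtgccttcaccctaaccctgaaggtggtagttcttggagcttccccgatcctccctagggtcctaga
Cyp1b1: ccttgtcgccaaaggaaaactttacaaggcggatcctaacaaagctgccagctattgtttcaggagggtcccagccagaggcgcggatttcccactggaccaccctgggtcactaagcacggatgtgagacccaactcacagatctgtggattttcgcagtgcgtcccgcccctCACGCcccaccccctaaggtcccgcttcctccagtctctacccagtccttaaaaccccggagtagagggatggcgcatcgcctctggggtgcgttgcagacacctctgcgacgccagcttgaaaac
The core was present for 5 of 6 members that rose and had a window, for 6 of 8 that did not pass, and for 35.2% of all symbols with a window (32.4% of windows).

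Of 20 measured targets of p53, the factor that arrests damaged cells, 8 fell and 0 rose, against 2.95% and 2.89% of all genes. The other 12 did not pass. The median log2 fold change was -0.15, with 15 estimates below 0 and 5 above, and 7 genes fell without DMSO replicate 3. Perp, a desmosomal protein and p53 target, had a signal of 9.06 to 13.5 (median 11.8) in the ligand plus RO libraries, against 21.4, 17.9 and 25.1 in the DMSO libraries. Its groups did not overlap, and the log2 fold change was -0.87 ± 0.09 (adjusted p = 7.5e-05). Cdkn1a, the p21 inhibitor of cyclin-dependent kinases, had a signal of 21.6 to 28.2 (median 24.6) in the ligand plus RO libraries, against 29.4, 32.0 and 38.2 in the DMSO libraries. It fell by 0.39 ± 0.05 (adjusted p = 0.0005), and the ligands alone gave 0.69 (rDLL4) and 1.1 (rJAG1). Phlda3, a repressor of AKT, gave -0.46 ± 0.07 (adjusted p = 0.002) and Ccng1, cyclin G1, -0.36 ± 0.06 (adjusted p = 0.0026). In the co-culture 0 of 19 measured p53 targets passed in either direction, against 3.29% of all genes there. Cdkn1a averaged 19.7 ± 4.44 with RO and 20.3 ± 7.50 with DMSO in the co-culture (SD, n = 4 each).

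Of 13 G1 cyclins and kinase inhibitors, 3 fell and 2 rose, against 2.95% and 2.89% of all genes. Without DMSO replicate 3 the counts were 3 lower and 0 higher. Cdkn2b, the p15 inhibitor, had a signal of 57.9 to 69.9 (median 64.3) in the ligand plus RO libraries, against 108, 91.5 and 92.1 in the DMSO libraries. Its groups did not overlap (-0.59 ± 0.06, adjusted p = 0.00012). Cdkn2a, which encodes p16 and p19ARF, fell by 0.34 ± 0.07 (adjusted p = 0.0095), and without DMSO replicate 1 its adjusted p was 0.068. Cdkn1b, the p27 inhibitor, rose by 0.28 ± 0.07 (adjusted p = 0.027), with overlapping groups, and stood at 0.18 (adjusted p = 0.15) without DMSO replicate 3. None of 36 replication and mitosis genes passed, and their median was 0.02.

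Keratin and adhesion genes listed as epithelial markers fell in 5 of 6 measured members, against 2.95% of all genes. Their median log2 fold change was -0.70, and 5 also fell without DMSO replicate 3. Krt14, a basal keratin, had a signal of 209.6 to 287 (median 247) in the ligand plus RO libraries, against 489, 442 and 485 in the DMSO libraries. The groups were far apart, and the log2 fold change was -0.95 ± 0.06 (adjusted p = 9.7e-07). Krt8 and Krt18, the paired simple keratins, gave -0.72 ± 0.06 (adjusted p = 1.2e-05) and -0.68 ± 0.07 (adjusted p = 0.00012). Krt19 gave -0.43 ± 0.06 (adjusted p = 0.00052), and Cdh1 is given above. Epcam, a defining epithelial marker, was at 0.639 to 1.42 with ligand plus RO and 0.642 to 1.35 in DMSO and did not pass. The summed signal of the 6 was 729 to 828 with ligand plus RO and 1212 to 1327 in DMSO, and fewer cells of a type and less RNA per cell cannot be told apart in such bulk samples. Against the same DMSO libraries, rJAG1 alone gave 1.00 for Krt14, 0.90 for Krt8 and 1.05 for Krt18 on the log2 scale. In the co-culture 3 of 6 fell with RO, against 2.08% of all genes there, with Krt14 at -0.72 (adjusted p = 0.00042).

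In the other cell type lists fewer genes passed, and over all genes tested 2.95% fell and 2.89% rose. Of 12 endothelial and endocardial genes 2 fell and 0 rose, Nfatc1, an endocardial transcription factor, at -0.85 ± 0.14 (adjusted p = 0.0028) and Ets1 at -0.40 ± 0.09 (adjusted p = 0.02). The call of Ets1 was lost without DMSO replicate 3 (-0.22, adjusted p = 0.07). Their summed signal was 341 to 373 with ligand plus RO and 364 to 413 in DMSO. Of 8 stromal and fat cell genes 2 rose, Dcn, decorin, at 0.56 ± 0.12 (adjusted p = 0.013) and Kitl, the KIT ligand, at 0.32 ± 0.07 (adjusted p = 0.016), and 1 rose without DMSO replicate 3: Dcn was then at 0.31 (adjusted p = 0.021) and Kitl, which lost its call, at 0.29 (adjusted p = 0.071). The stromal sum was 8330 to 9164 with ligand plus RO and 5823 to 8939 in DMSO, with the lowest value in 1 DMSO library. Tnnt2, cardiac troponin T, 1 of only 2 cardiomyocyte genes with values, fell by 0.89 ± 0.10 (adjusted p = 0.00014), and 0 of 5 leukocyte and erythroid genes passed. The part of these cell type genes in the other results was not tested.

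**Figure D4:**
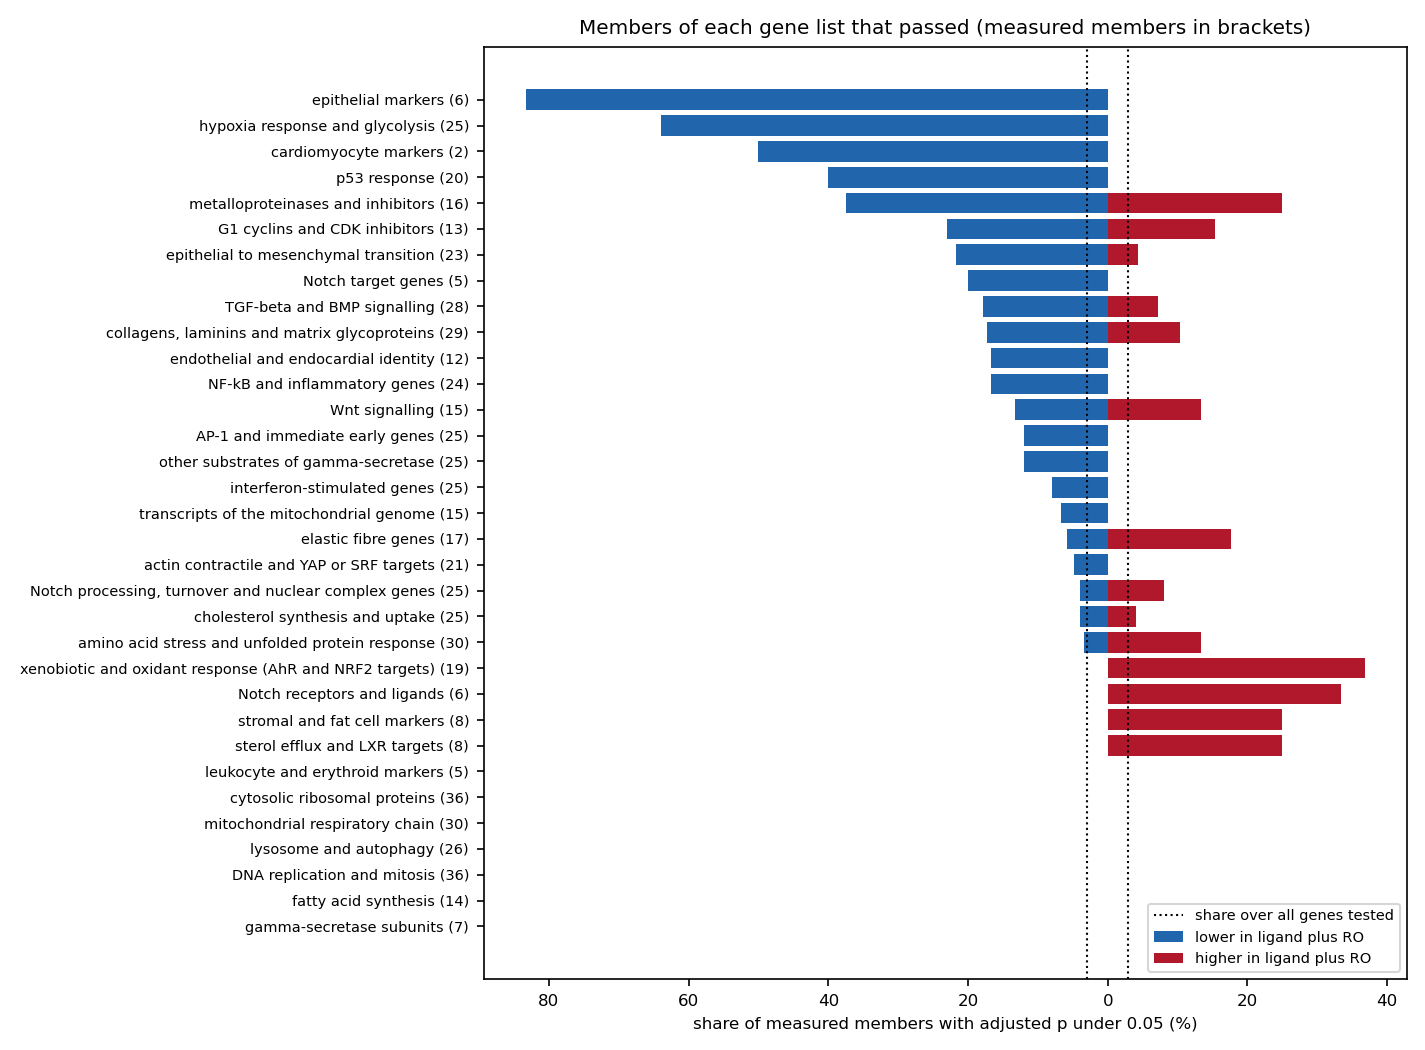
Share of the measured members of each gene list (number in brackets, y axis) that passed as lower (left, blue) or higher (right, red) with ligand plus RO against DMSO, in percent. The dotted lines are the shares over all genes, 2.95% lower and 2.89% higher, and the hypoxia and epithelial lists reach farthest to the left.

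Genes of matrix, TGF-beta and proteolysis moved in both directions. The 12 largest falls among genes with a mean signal of at least 5 on 1 side held several secreted or matrix proteins. Anxa8, a calcium-dependent phospholipid-binding annexin, fell most, with a signal of 40.0 to 48.5 (median 46.9) in the ligand plus RO libraries, against 155, 124 and 153 in the DMSO libraries. Its log2 fold change was -1.63 ± 0.07 (adjusted p = 1.4e-08), with no overlap. Col11a1, a fibrillar collagen, had a signal of 62.5 to 79.7 (median 69.2) in the ligand plus RO libraries, against 195, 171 and 205 in the DMSO libraries. Its log2 fold change was -1.44 ± 0.08 (adjusted p = 7.1e-07). Kif26b, a kinesin-family protein (chromosome 1, 178529125 to 178939200, GRCm38), had a signal of 15.9 to 21.9 (median 17.9) in the ligand plus RO libraries, against 55.0, 57.9 and 33.5 in the DMSO libraries. Its log2 fold change was -1.34 ± 0.13 (adjusted p = 4.0e-05). Against the same DMSO libraries, rJAG1 alone gave 0.95 for Anxa8, 0.86 for Col11a1 and 2.04 for Kif26b. With RO in the co-culture the 3 fell as well (-0.65, -0.90 and -1.74; adjusted p = 0.0018, 5.7e-05 and 2.1e-05).

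Ptprb, a vascular tyrosine phosphatase, had a signal of 25.0 to 29.8 (median 26.0) in the ligand plus RO libraries, against 80.0, 57.2 and 106 in the DMSO libraries. It fell in every library (-1.53 ± 0.12, adjusted p = 1.2e-05). The proteoglycan gene Vcan lay at 1.61 to 2.85 (median 2.04) against 6.65, 5.28 and 6.23 in DMSO, at -1.18 ± 0.10 (adjusted p = 2.5e-05). Others of the 12 were the protease Adamts16 (-1.36), the kinase Sgk1 (-1.27), the BMP-family ligand Gdf6 (-1.26), the matrix protein Matn3 (-1.18), the growth factor Pdgfb (-1.12) and the creatine kinase Ckb (-1.11), all without overlap except Pdgfb. Of the 12, 11 were listed in the co-culture table and 10 of them fell there with RO, against 2.08% of all genes there. Vcan (-0.15, adjusted p = 0.47) was the exception.

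Of 28 TGF-beta and BMP genes 5 fell and 2 rose, against 2.95% and 2.89% of all genes, with a median of -0.03. Without DMSO replicate 3 the counts were 4 lower and 0 higher. In the co-culture 7 of 27 measured genes of this list fell with RO and 0 rose, against 2.08% and 1.21% of all genes there. The falls included Ltbp1, which tethers latent TGF-beta, at 12.3 to 15.7 (median 13.1) against 22.6, 21.4 and 21.5 in DMSO (-0.65 ± 0.07, adjusted p = 0.0001). Skil, a SMAD co-repressor, gave -0.36 ± 0.05 (adjusted p = 0.0006) and Bmper, a BMP-binding protein, -0.38 ± 0.07 (adjusted p = 0.0044). Among 16 metalloproteinases and inhibitors 6 fell and 4 rose, and in the co-culture 4 of 16 measured fell and 1 rose. Mmp14, a membrane-anchored metalloproteinase, had a signal of 138 to 166 (median 153) in the ligand plus RO libraries, against 285, 253 and 202 in the DMSO libraries. Mmp2, the gelatinase that Mmp14 activates, had a signal of 169.6 to 213 (median 181) in the ligand plus RO libraries, against 379, 367 and 234 in the DMSO libraries. Both fell without overlap, at -0.69 ± 0.06 (adjusted p = 3.9e-05) and -0.79 ± 0.08 (adjusted p = 8.4e-05), and both fell with RO in the co-culture (-0.62 and -0.50). Timp3, a metalloproteinase inhibitor, fell by 0.41 ± 0.06 (adjusted p = 0.0017) and Adamts5, an aggrecanase, rose by 0.40 ± 0.06 (adjusted p = 0.0017).

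Elastic fibre genes parted, with 3 of 17 higher and 1 lower, against 2.89% and 2.95% of all genes. Lox, the oxidase that crosslinks elastin and collagen, had a signal of 1857 to 2229 (median 2071) in the ligand plus RO libraries, against 3545, 2956 and 3758 in the DMSO libraries. It gave -0.73 ± 0.08 (adjusted p = 8.5e-05) and fell in the co-culture too (-0.69, adjusted p = 0.00064). Eln, elastin itself, had a signal of 4.46 to 5.75 (median 4.97) in the ligand plus RO libraries, against 2.69, 3.45 and 1.59 in the DMSO libraries. It rose by 0.79 ± 0.14 (adjusted p = 0.004), and so did the microfibril gene Fbn2 (0.53 ± 0.10, adjusted p = 0.0081) and the fibulin Efemp1 (0.31 ± 0.05, adjusted p = 0.003). In the co-culture 0 of 18 measured elastic fibre genes rose with RO and 5 fell, against 1.21% and 2.08% of all genes there. Of 29 collagens, laminins and glycoproteins 5 fell, among them Col8a1 (-0.43) and Lamb1 (-0.44), and 3 rose, among them Tnc, tenascin C (0.50). With RO in the co-culture, 7 of 29 measured genes of this list fell and 0 rose. Of 23 genes of the epithelial to mesenchymal transition 5 fell and 1 rose, the falls including S100a4 (-0.71 ± 0.09, adjusted p = 0.00056) and the hyaluronan synthase Has2 (-0.61 ± 0.10, adjusted p = 0.0028).

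Among genes with a mean signal of at least 5 on 1 side and 1 direction in all 6 libraries, the 12 largest rises were led by a water channel. Aqp1, aquaporin 1, had a signal of 12.2 to 19.7 (median 16.2) in the ligand plus RO libraries, against 5.92, 7.14 and 3.04 in the DMSO libraries. Its log2 fold change was 1.45 ± 0.15 (adjusted p = 8.4e-05), with no overlap, and against the same DMSO libraries the ligands alone gave -1.70 (rDLL4) and -2.29 (rJAG1). In the co-culture it stood at 0.11 (adjusted p = 0.79). Next to Dlk1 and Ahrr, the 12 held Plekha6 (1.27), Sgpp2, a sphingosine phosphate phosphatase (1.13), Adgrl3, a latrophilin receptor (1.12), Nrep (0.99), Bche, butyrylcholinesterase (0.97), the hyaluronan-binding Cemip (0.96), Cd55, a complement regulator (0.94), Rspo3, a Wnt-enhancing R-spondin (0.94), and Xdh, xanthine dehydrogenase (0.91). Of these 9, Plekha6 alone had overlapping groups. Nrep was at 0.63 (adjusted p = 0.03) without DMSO replicate 3, in which it was lowest. In the co-culture, 2 of the 12 rose with RO, Dlk1 and Plekha6 (0.82, adjusted p = 0.00076), against 1.21% of all genes there.

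**Figure D5:**
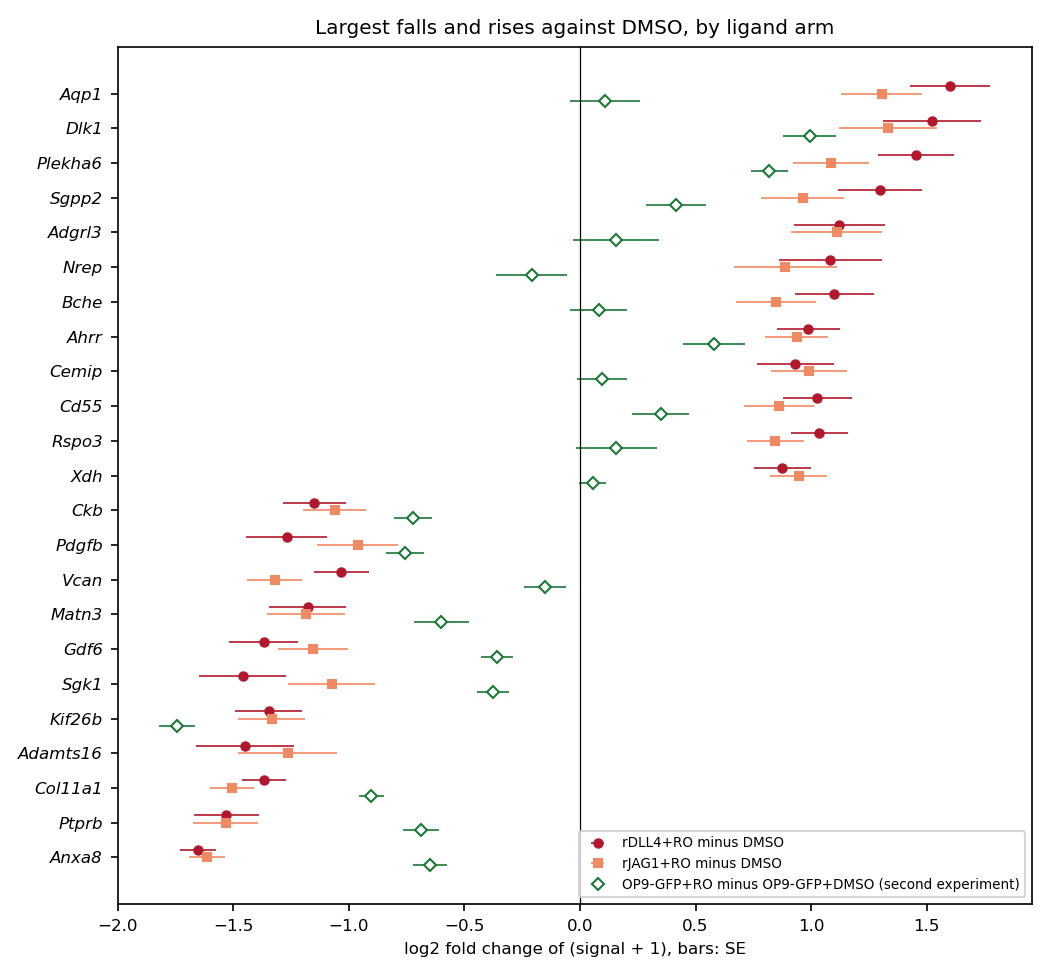
Log2 fold change (x axis, bars SE) of the 12 largest rises and 11 of the 12 largest falls (y axis) for rDLL4+RO minus DMSO, rJAG1+RO minus DMSO and, from the second experiment, OP9-GFP+RO minus OP9-GFP+DMSO. The ligand arms share their DMSO libraries; Kif26b is at -1.74 in the co-culture and Aqp1 at 0.11.

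Signalling lists beyond Notch moved mostly in single genes, and over all genes tested 2.89% rose and 2.95% fell. Of 15 Wnt genes 2 rose and 2 fell: Wnt4, a Wnt ligand, had a signal of 10.1 to 13.0 (median 10.9) in the ligand plus RO libraries, against 6.85, 6.91 and 4.89 in the DMSO libraries. Sfrp2, a secreted Wnt modulator, rose as Wnt4 did (0.78 ± 0.13, adjusted p = 0.0035, and 0.78 ± 0.11, adjusted p = 0.00093). Wnt5a, a ligand of the other Wnt branch, fell by 0.59 ± 0.09 (adjusted p = 0.0022), and the receptor Fzd2 gave -0.23 ± 0.05 (adjusted p = 0.026), a call lost without DMSO replicate 3 (adjusted p = 0.071). Of 25 AP-1 and immediate early genes 3 fell: Junb (-0.61 ± 0.08, adjusted p = 0.00069), and the ERK-responsive Etv4 (-0.98 ± 0.14, adjusted p = 0.00077) and Dusp6 (-0.36 ± 0.08, adjusted p = 0.013). The call of Dusp6 was lost without DMSO replicate 3 (-0.33, adjusted p = 0.06). Of 24 inflammatory genes 4 fell, the chemokine Ccl2 (-0.65 ± 0.10, adjusted p = 0.0018), the receptor Il1rl1 (-0.71), the cyclooxygenase Ptgs2 (-0.79; -0.45 without DMSO replicate 3) and the cytokine Il6, which was at a signal of 0.0376 to 0.568 in the ligand plus RO libraries and between 1.1 and 1.19 in DMSO. Il6 gave -0.76 ± 0.19 (adjusted p = 0.031), kept its call in 3 of 9 fits that left out 1 library, and was at -0.70 (adjusted p = 0.13) without DMSO replicate 3. Ccn2, a YAP and TGF-beta target and the 1 of 21 contractile and YAP genes that passed, gave -0.77 ± 0.15 (adjusted p = 0.0086), and -0.47 (adjusted p = 0.02) without DMSO replicate 3, where 1 other gene of the list passed as higher. Of 25 interferon-stimulated genes 2 fell, the antiviral sensor Oas1a (-0.87 ± 0.14, adjusted p = 0.002) and the deubiquitinase-like Usp18 (-0.47 ± 0.11, adjusted p = 0.027; 0.082 without DMSO replicate 3).

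Cholesterol and fatty acid synthesis genes differed between the 2 experiments in their counts. Over all genes tested, 2.89% rose and 2.95% fell with ligand plus RO, and 1.21% and 2.08% in the co-culture. With ligand plus RO, 1 of 25 cholesterol synthesis and uptake genes rose, the sterol carrier Stard4 (0.24 ± 0.05, adjusted p = 0.014), and 1 fell. Both calls, that of Stard4 and that of the gene that fell, were lost when DMSO replicate 3 was left out (0 higher and 0 lower). With RO in the co-culture, 15 of the 25 rose and 0 fell, and 4 of 15 fatty acid synthesis genes rose against 0 of 14 with ligand plus RO. The difference between the experiments was not tested. Apoe and Abca9, of 8 sterol efflux genes, passed as higher (0.79 and 0.59), both lowest in DMSO replicate 3 and both without a call when it was left out, at 0.46 (adjusted p = 0.15) and 0.30 (adjusted p = 0.23). Of 30 amino acid stress and unfolded protein genes 4 rose and 1 fell, with 26 estimates above 0: the chaperone Dnajc3 rose by 0.31 ± 0.05 (adjusted p = 0.0036), and Ddit4, an inhibitor of mTORC1, fell by 0.42 ± 0.06 (adjusted p = 0.0012). Hyou1 (0.16) and Herpud1 (0.21), of the same response, passed, and each lost the call in 8 of 9 fits that left out 1 library. Without DMSO replicate 3 the counts of this stress list were 2 higher and 1 lower. Of 26 lysosome and autophagy genes 0 passed, with 20 estimates above 0 and 6 below, although 1 passed as lower without DMSO replicate 3. Of 36 cytosolic ribosomal protein genes 0 passed, but 35 estimates were below 0 and 1 above. Their median log2 fold change was -0.08, against 0.0043 over all genes. Of 15 mitochondrial genome transcripts mt-Rnr2, the large ribosomal RNA, fell by 0.45 ± 0.09 (adjusted p = 0.0082).

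Over the 12713 genes listed in both experiments, ligand plus RO called 766 and RO in the co-culture 413, and 132 were called in both. These were 17.2% of the first list, against 3.25% of all these genes called in the co-culture. They were 32% of the second list, against 5.85% of all genes tested called with ligand plus RO. Of the 132, 86 fell in both, 39 rose in both and 7 moved in opposite directions. The shared falls were 22.1% of the genes that fell with ligand plus RO and 32.6% of those that fell in the co-culture. The shared rises were 10.4% and 26.2%. Over all genes tested, 2.08% fell and 1.21% rose in the co-culture, and 2.95% fell and 2.89% rose with ligand plus RO. The experiments have no library in common, and they differ in ligand, serum, time with the inhibitor and the presence of OP9 cells.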

How the data were processed

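RNA was extracted with the PicoPure kit and sequenced from NEBNext Ultra libraries, per the labels' protocols. FastQC, cutadapt, RSEM, limma and build GRCm38 are named in the submitters' processing notes; annotation, aligner, filters and strand setting are not stated. Per gene, the authors deposited normalized signal, not counts. Dividing by the value of 1 read gave whole reads (within 0.01) for 100% of values in every library used. Of 13407 gene identifiers 13384 matched a symbol (12964 of 12984 in the co-culture table). In R 4.3.3, log2(signal + 1) of the 15 libraries of the coated-well experiment was fitted with limma 3.58.1 (trend, 5 groups, replicate number as block, Benjamini-Hochberg over all genes). The contrast was the mean of both ligand plus RO groups minus DMSO. The 8 co-culture libraries (19.4 to 25.2 M reads) were fitted alone. Recovered reads were also tested with edgeR 4.0.16 and DESeq2 1.42.0. In simulated data for the pooled contrast over 13407 genes, 90 of 100 genes changed 1.5-fold and 99 of 100 changed 2-fold were called, and 4.06% of calls were false. For the co-culture contrast over 12984 genes, 95 and 99 of 100 were called and 8.06% of calls were false, above the nominal 5%. The changed genes were drawn only from those above a minimum mean level, so the rates do not cover genes near the floor. The simulated libraries held no replicate effect and no extra spread for DMSO replicate 3, so the rates may differ in the real data.

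Numbers pair the samples: over 9 pairs of same-numbered libraries, deviations from group means correlated across genes at 0.189 to 0.404, above the threshold of 0.1. The 18 pairs of different numbers gave -0.277 to 0.059. In the co-culture, 4 same-numbered pairs gave 0.178 to 0.397 and 12 others -0.318 to 0.138. There the highest of the others also passed 0.1, so the threshold alone does not show the pairing. All 9 pairs of libraries within the 3 groups differed beyond sampling noise. A floor of 3 reads is a signal of 0.0859 to 0.226 in these 9 libraries; it covers counting error only.

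Named genes are the measured Notch targets, the 12 largest rises and falls (mean signal of at least 5 on 1 side, same direction in all 6 libraries against the DMSO library of their number), and from each list up to 4 passing members with the smallest p, or 2 where none passed. The members, the lists and this rule were chosen with earlier results of these data known. Alternatives were other pseudocounts, scalings, filters, tools, library weights, fewer libraries, no block and leaving out each library. Promoter windows came from RefSeq (GRCm38.p6). Some genes that the rule names are not reported here.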

Additional observations from a re-analysis of the deposited data

Results flagged for a closer look

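Among 112 named genes, 7 had 1 of the 6 ligand plus RO libraries so far from the others that Dixon's ratio (its gap to the nearest library over the whole range) passed the 95% critical value for 6 samples. Chance flags about 1 in 20 such groups, and 7 of 112 is close to that.

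Pdgfb (ratio 0.787) was highest in rJAG1+RO replicate 1, at 12.7, with the next library at 7.20. For Nrep (0.656) the same library was lowest, at 23.5, with the next at 31.2, and likewise for Aurka (0.663), at 67.4 with the next at 72.5. Lamp2 (0.697) and Dcn (0.695) were highest in rDLL4+RO replicate 1, at 544 and 746, with the next libraries at 496 and 657. Dtx4 (0.788) was highest in rDLL4+RO replicate 3, at 14.4 with the next at 11.6. Oas1a (0.799) was lowest in rJAG1+RO replicate 3, at 0.720 with the next at 1.92. The calls of Pdgfb, Nrep, Dcn, Dtx4 and Oas1a did not depend on the library named here: each stayed past the threshold when it was left out.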

How the results depend on the processing

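Of 94 named genes that passed, 63 kept the call under all alternatives and leave-one-out fits and 72 in all 9 leave-one-out fits, and 0 changed sign. Without DMSO replicate 3, 18 lost the call. Without the replicate block the pooled comparison called 325 genes, rDLL4+RO 188, rJAG1+RO 126 and the co-culture 118, and 25 of the 94 named genes lost the call; with library weights the first 3 called 1505, 1127 and 1194. The arms against each other gave 8 genes by DESeq2. Notch targets that passed numbered 2 by edgeR, 2 by DESeq2 (Hes1 and Nrarp) and 2 with library weights (Hes1 lower, Hey2 higher). Leaving out 1 library gave 513 to 652 genes for the pooled comparison (fewest without rJAG1+RO replicate 3), 219 to 502 for rDLL4+RO, 132 to 405 for rJAG1+RO, 0 to 2 for the arms against each other, 120 to 363 for the co-culture and 1 to 2 Notch targets. Counts moved by over 1.5 times for the pooled comparison without rJAG1+RO replicate 3 (513), for rDLL4+RO without its replicate 1 (273) or 3 (219), and for rJAG1+RO without its replicate 1 (181), 2 (209) or 3 (132) or DMSO replicate 1 (247). In the co-culture they did so without RO replicate 2 (170), 3 (125) or 4 (277) or DMSO replicate 2 (172) or 3 (120). The cause of these moves was not tested, beyond the smaller number of samples. Under the other settings (pseudocounts of 0.5 and 5, a mean signal of at least 5, quantile, TMM and DESeq2 scaling, 9 libraries, 6 libraries as 1 group) counts stayed within 1.5 times. Over every setting and leave-one-out fit, the median over all genes in the pooled comparison lay between -0.0017 and 0.0069. Differences of genes at 3 reads or fewer were not detectable at this depth.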
